A study of Mus musculus with 15 samples.

Results

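Nfe2l2, the gene for the transcription factor NRF2, was described together with its inhibitor Keap1 and 8 antioxidant or NADPH-supplying enzymes, Nqo1, Txnrd1, Srxn1, Gsr, Prdx1, G6pdx, Sod2 and Cat. The 10 genes were set by a list of names with no threshold on a value, made with earlier results of these data known. All 10 were found among 24717 annotated genes on which at least 1 library listed a transcript.

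RNA sequencing (RNA-seq) libraries came from C57BL/6 mice, 3 in each of 5 groups. Untreated tumors of GL261, a mouse glioma line, were taken from the brain of mice that received no antibody. Dosed tumors came from mice given 50, 100 or 200 µg per dose of B20.4.1.1, a monoclonal antibody that binds VEGF-A. Dosing started 10 days after implantation and was repeated every 3 days up to the endpoint. The fifth group was healthy brain. Tissue was frozen after perfusion with buffered saline, RNA was extracted with Trizol, and libraries were built from 1 µg of total RNA. All tumors came from a single cell line, so the groups describe that line and its host tissue. Age, sex and whether untreated mice received a carrier are not stated in the labels used here. The labels number the samples of a group as repeats and name no separate animals, and the p-values therefore reflect variation among those samples, which may be technical.

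NRF2 is kept low by KEAP1, which binds it and hands it to a ubiquitin ligase for destruction. Oxidants and reactive electrophiles modify KEAP1, NRF2 then builds up, pairs with small MAF proteins and switches on genes that carry an antioxidant response element. Its targets reduce quinones, recharge thioredoxin and glutathione, remove peroxides and supply NADPH, the electron donor of these reactions. In the brain the pathway is best known from astrocytes, and in many cancers it is more active than in the tissue of origin.

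The element's core, TGACNNNGC, was searched on both strands in windows of 300 bases around RefSeq gene starts (250 bases before the start and 50 after it, GRCm38.p6). It was found in 5 of the 9 members with a window, and in 13.99% of the 27025 genes with a window. The stretches that hold it are shown because this is the sequence through which NRF2 is known to act on its targets. Capitals mark the core or its reverse complement, and each line reads 5′ to 3′ on the gene's strand.
Nfe2l2 (minus strand, chr2:75704869-75704913): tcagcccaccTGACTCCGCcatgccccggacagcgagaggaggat
Txnrd1 (plus strand, chr10:82859089-82859148): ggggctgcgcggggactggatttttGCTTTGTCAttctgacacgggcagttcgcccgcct
Srxn1 (plus strand, chr2:152105542-152105571): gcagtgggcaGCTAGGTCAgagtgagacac
Prdx1 (plus strand, chr4:116685441-116685500): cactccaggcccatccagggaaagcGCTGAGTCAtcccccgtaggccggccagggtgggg
G6pdx (minus strand, chrX:74428903-74428962): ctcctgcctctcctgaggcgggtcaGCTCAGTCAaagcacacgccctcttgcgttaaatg

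Counted from the RefSeq start, the core lay 240 bases upstream in Nfe2l2, 133 in Prdx1, 92 in Txnrd1 and 57 in G6pdx. In Srxn1 it lay downstream of the start. Nfe2l2 carried it in the forward orientation and the other 4 as the reverse complement. Txnrd1 has 3 annotated start windows and held the core in 1 of them. No match was found in the windows of Keap1, Nqo1, Sod2 and Cat. A match is a run of letters, not a measured binding site.

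Each library was deposited as a list of assembled transcripts with an abundance in FPKM (fragments per kilobase of transcript, scaled to library depth). A gene's value was the sum, over the transcripts on its GENCODE M21 exons (mm10), of FPKM weighted by how much of the exonic length each one covered. Estimated depth was 20.1 to 35.9 M fragments in tumors, and 22.1, 17.7 and 57.8 M in brain replicates 1 to 3. Genes listed in pieces, those where no single transcript spanned most of the covered length, made up 0.326 to 0.557% of protein-coding genes in 4 tumor libraries, namely 100 µg replicate 3 and all of the 200 µg group. They made up 1.87 to 6.21% in the other 8, with 50 µg replicate 3 highest. In brain replicates 1 to 3 the share was 11.8, 5.09 and 0.906%, against 2.28 to 2.80% in untreated tumors. The part of this share in the differences between tumor and brain was not tested. For replicate 3 of each of the 4 tumor groups, 4 libraries in all, the agent tag disagreed with the title that set the group. By the tag, untreated replicate 3 was at 50 µg and 50 µg replicate 3 at 100 µg. In the same way, 100 µg replicate 3 was at 200 µg and 200 µg replicate 3 at 0. Proliferation markers checked the tumor label, and their summed level was 229 to 326 FPKM in untreated tumors, against 2.20 to 4.58 FPKM in brain. Neuron markers checked the brain label, with sums of 25.3 to 44.1 FPKM in untreated tumors, against 1086 to 1425 FPKM in brain. No transcript can check the antibody dose.

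**Figure D1:**
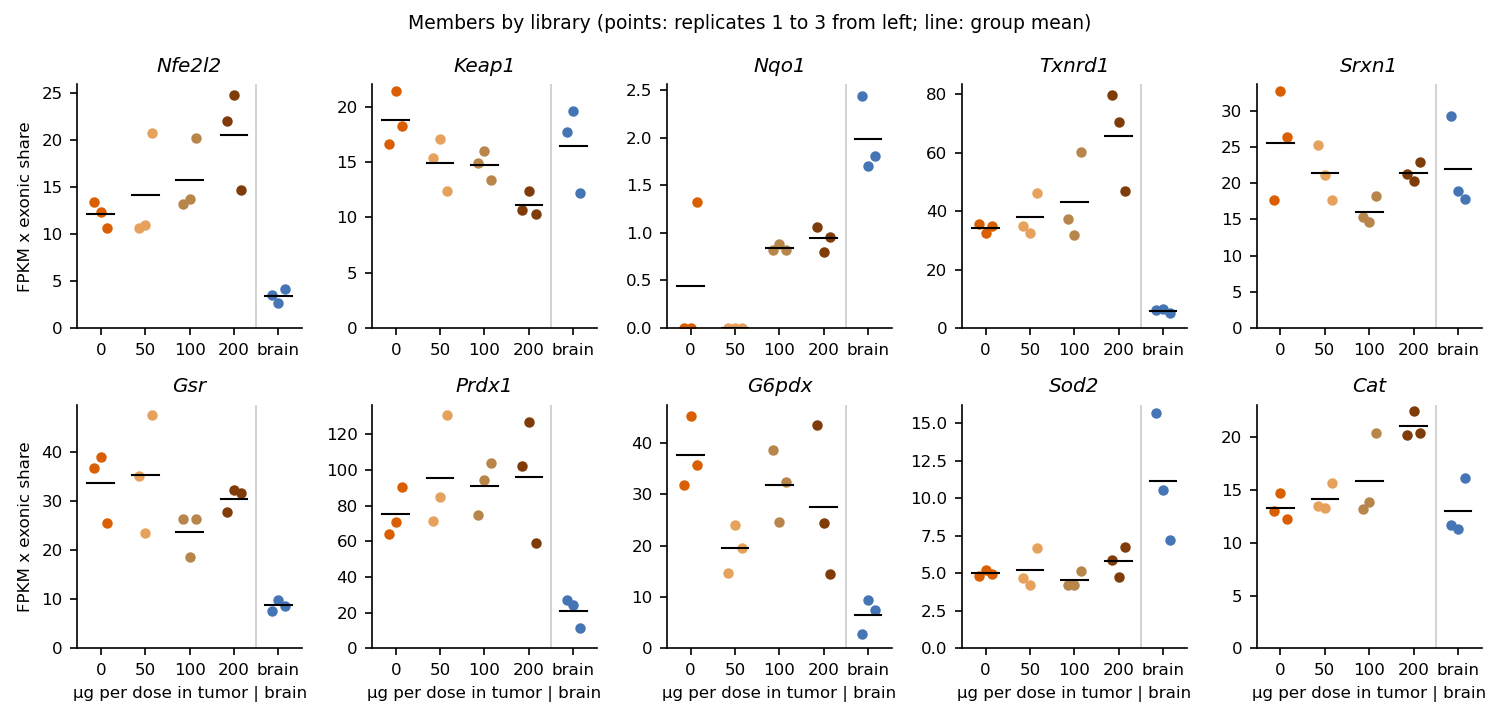
Each panel plots the value of 1 member in FPKM times exonic share on the vertical axis, in tumors by antibody dose (0, 50, 100 and 200 µg) and in healthy brain at the right; points are libraries and lines are group means. Nfe2l2, Txnrd1, Gsr, Prdx1 and G6pdx sit higher in every tumor library than in every brain library, and the group means of Txnrd1 and Cat are highest at 200 µg.

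Untreated tumor was set against healthy brain to place the members in the glioma relative to the tissue it grows in. Transcripts for NRF2, cytosolic thioredoxin reductase, glutathione reductase, peroxiredoxin 1 and glucose-6-phosphate dehydrogenase were higher in tumor, by log2 fold changes of 1.57 to 2.48. Protein levels and NRF2 activity were not measured. The quinone reductase Nqo1 was listed at 0 in 2 of 3 tumors, and its call as lower was lost in several of the alternatives given beside its values. Keap1, Srxn1 and Cat did not pass the test. Mitochondrial superoxide dismutase, Sod2, was called lower on the exonic scale and higher on the coding scale described further on, so its direction depended on the scale.

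The NRF2 gene, Nfe2l2, had 13.4, 12.4 and 10.7 FPKM in untreated tumors, against 3.51, 2.72 and 4.11 FPKM in brains. Every tumor library lay above every brain library. The log2 fold change, fitted on log2(FPKM + 1), was 1.57 (SE 0.18, adjusted p = 0.000447 by limma, adjusted over 16089 genes). This scale understates the change of low genes, a point that bears most on Nqo1. In bulk tissue, more cells of a type and more RNA per cell cannot be told apart.

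Keap1, the adaptor that presents NRF2 to the ligase, had 16.6, 21.5 and 18.2 FPKM in untreated tumors, against 17.7, 19.6 and 12.2 FPKM in brains. The groups overlapped, and the log2 fold change was 0.20 (SE 0.22, adjusted p = 0.463 by limma), which median-of-ratios scaling turned to -0.01. Keap1 shares 510 bases with the gene model Gm16754, and without strand information the reads of both cannot be told apart.

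Txnrd1, the cytosolic thioredoxin reductase, had 35.7, 32.6 and 34.8 FPKM in untreated tumors, against 6.16, 6.67 and 5.13 FPKM in brains. The replicates of each group lay close together and far from the other group. Its log2 fold change was 2.34 (SE 0.15, adjusted p = 4.37e-05), the smallest p of the 10 members. Gsr, which recharges glutathione with electrons from NADPH, had 36.9, 39.0 and 25.5 FPKM in untreated tumors, against 7.68, 9.95 and 8.74 FPKM in brains. The groups did not overlap, and the log2 fold change was 1.81 (SE 0.21, adjusted p = 0.000468).

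Prdx1, a peroxidase that thioredoxin recharges, had the highest level per length of the members in every tumor library, though not in every brain library. Prdx1 had 64.0, 70.7 and 90.2 FPKM in untreated tumors, against 27.2, 24.5 and 11.1 FPKM in brains. All tumor libraries were above all brain libraries, with 1.87 on the log2 scale (SE 0.35, adjusted p = 0.00416). In brain replicate 3, the lowest, all of the value came from a transcript joined to the neighboring gene Mmachc. Without that library the log2 fold change was 1.49, still called. The copies Gm21399 and Gm7204 match the coding sequence of Prdx1 at 98.3 and 97.5% of bases, so reads could be split among them, and neither was above 2.70 FPKM in any library.

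G6pdx, the first enzyme of the pentose phosphate pathway and a source of NADPH, had 31.9, 45.4 and 35.8 FPKM in untreated tumors, against 2.70, 9.49 and 7.38 FPKM in brains. The groups did not overlap, and its log2 fold change of 2.48 was the largest of the members (SE 0.41, adjusted p = 0.00219). The low value of brain replicate 1 came from a single transcript over 3.67% of the exonic length that held none of the introns of G6pdx, a gene that shares 418 bases with Ikbkg. Without that library the log2 fold change was 2.03, still called.

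Nqo1, the quinone reductase that is often read as a sign of NRF2 activity, was listed at 0 in untreated replicates 1 and 2 and at 1.33 FPKM in replicate 3, against 2.43, 1.70 and 1.80 FPKM in brains. All tumor libraries were below all brain libraries, and Nqo1 reached the filter of a mean of 1 FPKM through the brain libraries. The log2 fold change was -1.16 (SE 0.36, adjusted p = 0.0303). The call was lost with a pseudocount of 0.1 (adjusted p = 0.0549) and without brain replicate 2 (0.0652), brain replicate 3 (0.0653), untreated replicate 1 (0.0955) or untreated replicate 2 (0.0957). Without brain replicate 1, and in 1 fit of all 15 libraries, Nqo1 fell under the filter and was not tested. A listing at 0 can be a failed assembly at these levels.

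Srxn1, sulfiredoxin, which repairs overoxidized peroxiredoxins, had 17.7, 32.7 and 26.4 FPKM in untreated tumors, against 29.3, 18.9 and 17.9 FPKM in brains. Cat, the peroxisomal catalase, had 13.0, 14.7 and 12.2 FPKM in untreated tumors, against 11.7, 11.3 and 16.1 FPKM in brains. Both overlapped between the groups, with log2 fold changes of 0.20 (SE 0.29) for Srxn1 and 0.04 (SE 0.19) for Cat, which a rescaling by the median of ratios turned to -0.01 and -0.17.

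Sod2, which removes superoxide in mitochondria, had 4.84, 5.22 and 4.94 FPKM in untreated tumors, against 15.7, 10.6 and 7.22 FPKM in brains. On this scale all tumor libraries were lower, and the log2 difference was -0.96 (SE 0.27, limma adjusted p = 0.0210). The coding part is 666 of 10008 exonic bases. Weighted by the share of the coding length instead, Sod2 averaged 28.1 ± 0.909 FPKM in untreated tumors and 16.3 ± 6.68 FPKM in brains (SD, n = 3 each). The log2 fold change was then 0.82 (SE 0.29, adjusted p = 0.0464). A plain sum of FPKM gave 0.66 (adjusted p = 0.201). On the exonic scale the call was also lost without brain replicate 2 (adjusted p = 0.0572) and without untreated replicate 1 (0.0623), 2 (0.0543) or 3 (0.0602).

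**Figure D2:**
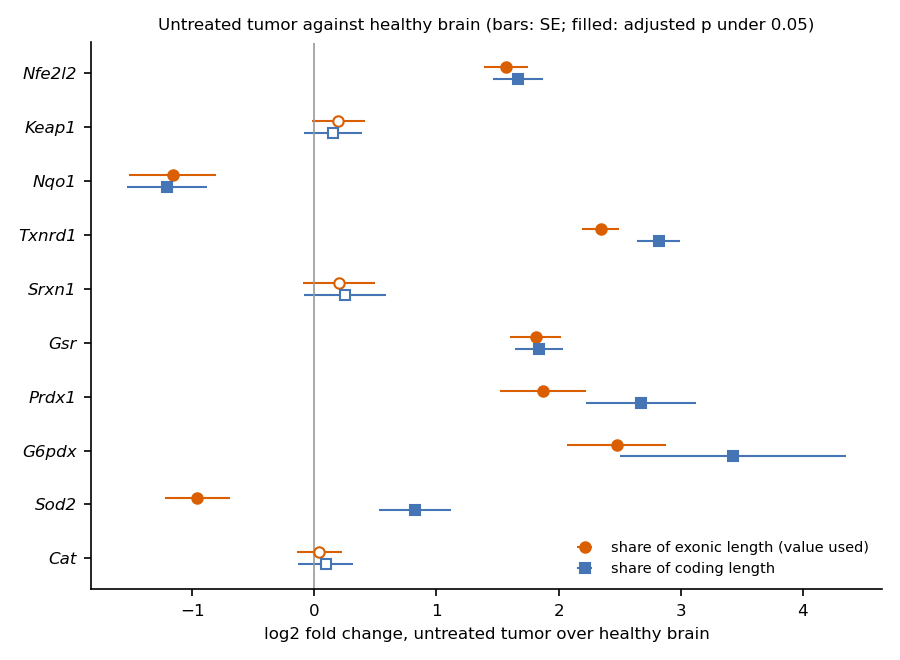
The log2 fold change of untreated tumor over healthy brain (horizontal axis, SE as bars, filled where adjusted p is under 0.05) is drawn for each member with the share of the exonic length as circles and the share of the coding length as squares. Both scales place Nfe2l2, Txnrd1, Gsr, Prdx1 and G6pdx to the right of 0, and Sod2 alone changes sides, from -0.96 to 0.82.

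In counts, 7 of the 10 members passed the test, 5 higher and 2 lower in tumor. The 2 lower include Nqo1, which reached the filter through the brain libraries, where it is high, so its call adds no support. Among all genes 61.1% passed, 32.8% higher and 28.4% lower. Groups did not overlap for 5 members on the higher side and 2 on the lower, again with Nqo1, where the shares over all genes were 37.2% and 31.7%. With 10 members, these counts do not set them apart from all genes. Their median log2 fold change was 0.89, beside 0.12 over all genes, and rescaling moved the median of all genes to -0.07. The 5 higher members were called in all 13 alternatives tried. The members called lower numbered 0 to 2 in them, with 0 without brain replicate 2, untreated replicate 1 or untreated replicate 2, and with the coding length 6 members were higher and 1 lower. Markers of the cell types in the tissue moved along with them. All 8 neuron and all 7 astrocyte markers were lower in tumor, with Gjb6 listed at 0 in untreated tumors, all 6 proliferation markers were higher, and 5 of 8 monocyte and macrophage markers were higher. Summed levels in untreated tumor and brain were 23.0 to 37.7 against 208 to 248 FPKM for astrocytes, and 93.5 to 252 against 30.3 to 44.6 FPKM for monocytes and macrophages. Their part in the members' differences was not tested.

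The antibody doses were compared with untreated tumor to ask how the tumor's transcripts differ under VEGF-A blockade. The 3 comparisons share the untreated libraries, so they are not independent. No member passed the test at any single dose. Across the dose series, Txnrd1 and Cat were higher and Keap1 lower per 100 µg. None of the 3 passed once a term for the libraries' assembly was added, as given further on. Nqo1 averaged under 1 FPKM over the tumors and was not tested, which left 9 members.

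Txnrd1 had 32.6 to 35.7 FPKM in tumors without antibody, 35.0, 32.6 and 46.3 FPKM at 50 µg, 37.3, 31.9 and 60.2 FPKM at 100 µg, and 79.7, 70.6 and 47.0 FPKM at 200 µg. Every 200 µg library was above every untreated library, and replicate 3 stood apart from its group at all 3 doses, high at 50 and 100 µg and low at 200 µg. The trend was 0.45 on the log2 scale per 100 µg (SE 0.12, adjusted p = 0.0401 by limma). At 200 µg against untreated tumor the log2 fold change was 0.88 (SE 0.27, adjusted p = 0.0891).

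Cat had 12.2 to 14.7 FPKM in tumors without antibody, 13.5, 13.3 and 15.7 FPKM at 50 µg, 13.2, 13.9 and 20.4 FPKM at 100 µg, and 20.2, 22.5 and 20.4 FPKM at 200 µg. The 200 µg libraries lay close together above all untreated ones, and 100 µg replicate 3 lay among them. The trend was 0.32 per 100 µg (SE 0.08, adjusted p = 0.0334), and 200 µg against untreated tumor gave 0.63 (SE 0.18, adjusted p = 0.0780).

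Keap1 had 16.6 to 21.5 FPKM in tumors without antibody, 15.4, 17.1 and 12.4 FPKM at 50 µg, 14.9, 16.0 and 13.4 FPKM at 100 µg, and 10.7, 12.4 and 10.3 FPKM at 200 µg. Every library at 100 and at 200 µg lay below every untreated library. The trend was -0.32 per 100 µg (SE 0.08, adjusted p = 0.0292), and 200 µg against untreated tumor gave -0.70 (SE 0.17, adjusted p = 0.0536).

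Nfe2l2 had 10.7 to 13.4 FPKM in tumors without antibody, 10.6, 10.98 and 20.8 FPKM at 50 µg, 13.2, 13.7 and 20.2 FPKM at 100 µg, and 22.02, 24.8 and 14.7 FPKM at 200 µg. All 200 µg libraries were above all untreated ones, and replicate 3 again stood apart at each dose. Its trend of 0.35 (SE 0.13, adjusted p = 0.104) and its log2 fold change of 0.68 at 200 µg (SE 0.28, adjusted p = 0.184) did not pass.

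G6pdx had 31.9 to 45.4 FPKM in tumors without antibody, 14.7, 24.1 and 19.6 FPKM at 50 µg, 38.7, 24.6 and 32.5 FPKM at 100 µg, and 43.5, 24.5 and 14.4 FPKM at 200 µg. It was lower in every 50 µg library than in every untreated one and overlapped at the higher doses. At 50 µg the log2 fold change was -0.93 (SE 0.35, unadjusted p = 0.0235, adjusted p = 0.889). Srxn1 had 17.7 to 32.7 FPKM in tumors without antibody, 25.3, 21.1 and 17.7 FPKM at 50 µg, 15.3, 14.6 and 18.3 FPKM at 100 µg, and 21.2, 20.3 and 22.9 FPKM at 200 µg. Its largest difference was at 100 µg, by -0.60 on the log2 scale (SE 0.22, unadjusted p = 0.0206, adjusted p = 0.433).

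Gsr had 25.5 to 39.0 FPKM in tumors without antibody, 35.2, 23.5 and 47.8 FPKM at 50 µg, 26.4, 18.6 and 26.5 FPKM at 100 µg, and 27.8, 32.3 and 31.7 FPKM at 200 µg. Prdx1 had 64.0 to 90.2 FPKM in tumors without antibody, 71.2, 84.8 and 131 FPKM at 50 µg, 74.6, 94.1 and 104 FPKM at 100 µg, and 102, 127 and 59.0 FPKM at 200 µg. Each dose group of these genes overlapped the untreated tumors, and their log2 fold changes at 200 µg were -0.12 (SE 0.27) for Gsr and 0.30 (SE 0.31) for Prdx1. Sod2 had 4.84 to 5.22 FPKM in tumors without antibody, 4.69, 4.23 and 6.67 FPKM at 50 µg, 4.24, 4.19 and 5.18 FPKM at 100 µg, and 5.89, 4.73 and 6.78 FPKM at 200 µg. On this exonic scale its lowest and highest values among the 12 tumors differed by 1.62 times, and those of G6pdx by 3.14 times. The spread of Sod2 on the coding scale was wider, as given with the transcript structures. Nqo1 was listed at 0 in all 50 µg libraries, at 0.817 to 0.883 FPKM at 100 µg and at 0.802 to 1.06 FPKM at 200 µg.

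In counts over the doses, 0 of 9 members and 0.0% of 14442 genes passed at 50 µg by limma, with 579 genes at an unadjusted p under 0.05 and 0 to 8 genes called under the alternatives. At 100 µg 0 of 9 members passed, beside 0.0831% of genes. At 200 µg 0 of 9 passed, beside 2.99% of genes, 2.13% higher and 0.866% lower. In the trend 3 of 9 passed, 2 higher and 1 lower, beside 7.89% of genes, 5.28% higher and 2.61% lower. Groups did not overlap for 3 members on the higher side and 1 on the lower at 200 µg, where 21.9% and 17.3% of genes did so. On the lower side the figures were 1 of 9 at 50 µg, G6pdx, beside 5.98% of genes, and 1 of 9 at 100 µg, Keap1, beside 7.12%. The median trend over the 9 members was 0.08 per 100 µg, beside 0.03 over all genes.

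All 200 µg libraries fell within the split of few genes in pieces, and 100 µg replicate 3 was the only library of another dose there. The agent tag of 100 µg replicate 3 read 200 µg, so its dose is uncertain. In that split Cat was at 20.2 to 22.5 FPKM at 200 µg and 20.4 FPKM in the 100 µg library, and Txnrd1 was at 47.0 to 79.7 FPKM and 60.2 FPKM. Keap1 was at 10.3 to 12.4 FPKM at 200 µg and 13.4 FPKM in the 100 µg library. With a term for the split, the trends were 0.05 (SE 0.17, adjusted p = 0.933) for Txnrd1, 0.04 (SE 0.11, adjusted p = 0.914) for Cat and -0.27 (SE 0.14, adjusted p = 0.442) for Keap1, and 0 genes of any kind passed by limma (1829 at an unadjusted p under 0.05). Dose and split cannot be told apart in these libraries. Grouped by the agent tag, no trend passed, and without the 4 libraries whose tag disagreed with the title Txnrd1 passed alone (0.58, SE 0.13, adjusted p = 0.0463), while at 200 µg both Nfe2l2 (0.81, adjusted p = 0.0324) and Txnrd1 (1.12, adjusted p = 0.0241) passed.

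The trend calls also rested on single libraries. Without untreated replicate 3, 200 µg replicate 1 or 200 µg replicate 2 no member passed. Without untreated replicate 1, 50 µg replicate 1 or 50 µg replicate 2 Keap1 passed alone, without untreated replicate 2 Cat did, and without 200 µg replicate 3 Txnrd1 did. Without 50 µg replicate 3 the 3 trends held and Nfe2l2 joined them (0.38, SE 0.11, adjusted p = 0.0392). At 200 µg, Txnrd1 (adjusted p = 0.0375), Cat (0.0247) and Keap1 (0.0320) passed without 100 µg replicate 3. Leaving out 50 µg replicate 3 let Keap1 pass there (0.0304).

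**Figure D3:**
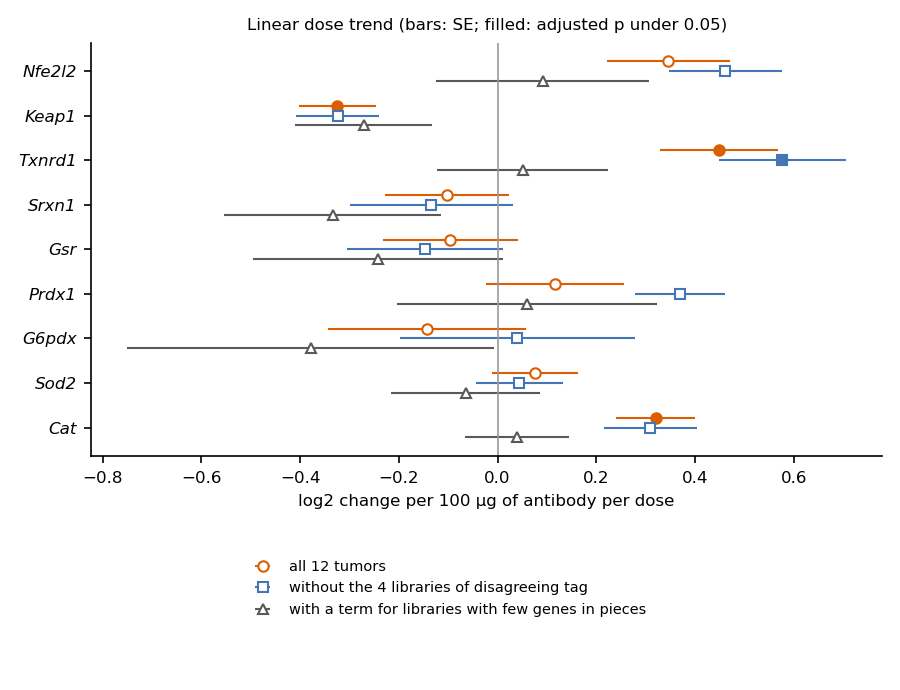
The log2 change per 100 µg of antibody (horizontal axis, SE as bars) is drawn for each tested member over all 12 tumors (circles), without the 4 libraries of disagreeing tag (squares) and with a term for libraries with few genes in pieces (triangles); filled symbols have an adjusted p under 0.05. Txnrd1 moves from 0.45 to 0.05 and Cat from 0.32 to 0.04 once the term is included, and Keap1 from -0.32 to -0.27.

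Marker sums of several cell types also differed along the dose. At 200 µg, against untreated tumor, microglia markers summed to 27.7 to 36.2 against 82.4 to 184 FPKM, with Siglech listed at 0 in both groups. Astrocyte markers summed to 40.5 to 57.9 against 23.0 to 37.7 FPKM, neuron markers to 9.85 to 11.6 against 25.3 to 44.1 FPKM, oligodendrocyte markers to 39.0 to 47.6 against 49.4 to 78.8 FPKM, and choroid plexus markers to 0 to 0.998 against 3.54 to 50.4 FPKM. Monocyte and macrophage markers summed to 220 to 294 against 93.5 to 252 FPKM, which overlap. Of these 9 markers 4 had a positive and 5 a negative log2 fold change, with a median of -0.23. Endothelial markers summed to 26.7 to 50.9 against 43.3 to 65.6 FPKM, also with overlap. Of 6 endothelial markers tested 1 was positive and 5 negative, and 0 passed. Of the markers tested, 2 of 6 for oligodendrocytes, 1 of 4 for microglia, 1 of 2 for neurons and 1 of 1 for choroid plexus were lower, 1 of 3 for astrocytes was higher, and 0 of 9 for monocytes and macrophages passed. Their part in the members' trends was not tested.

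The transcript structures added what the gene values leave out. Nfe2l2 is known from human cancers to lose the exon that binds KEAP1. No assembled intron skipped an exon of the principal transcript of Nfe2l2 or any other member, in any of the 15 libraries. Exons of other annotated transcripts were not checked. Each library listed only 2 or 3 Nfe2l2 transcripts over both strands, so a minor form could go unlisted. All 4 introns of the principal Nfe2l2 transcript were found in every library. The gene lies on chromosome 2 (75675513 to 75704641, minus strand, mm10), and all 15 libraries listed a transcript that began within 200 bases of the RefSeq start whose window is printed above. Such transcripts held all of the spliced FPKM in 12 libraries, and 51.2% in 50 µg replicate 1, 84.4% in 50 µg replicate 3 and 78.6% in 200 µg replicate 2.

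For Txnrd1 (chromosome 10, 82833951 to 82897712, plus strand) the start with the antioxidant response element core is at 82859206. Transcripts that began within 200 bases of it were listed in 3 of 3 brain and 8 of 12 tumor libraries. The start at 82860341, whose window has no such core, appeared in 9 of 12 tumor and 0 of 3 brain libraries. In those 9 it carried 14.1 to 68.8% of the FPKM of spliced transcripts. The 9 comprised untreated replicates 2 and 3, 50 µg replicate 1 and all libraries at 100 and 200 µg. No library listed a transcript that began within 200 bases of the start at 82833951. The nearest listed end lay 11210 to 25273 bases past it, and whether that start was used cannot be told from listed ends. In 5 tumor libraries 12.9 to 47.6% of the Txnrd1 value came from transcripts joined to a neighboring gene, against none in brain. Txnrd1 was low in brain, and the part of its level in which starts were assembled was not tested.

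Prdx1 (chromosome 4, 116685544 to 116700822, plus strand) had transcripts from within 200 bases of its RefSeq start, next to the printed core, in 2 of 3 brain libraries and in 0 of 12 tumors. In the tumors the listed transcript end nearest to that start lay 705 to 1808 bases further on, and all 12 held 4 of the 5 introns of the principal transcript. Transcripts that ended under 500 bases past the stop codon were listed in 11 of 12 tumors and 0 of 3 brains, where brain replicate 3 listed no transcript that held the stop codon.

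Sod2 (chromosome 17, 13006846 to 13040063, plus strand) also differed among the tumor libraries in its 3′ ends. Transcripts with a short 3′ end, again under 500 bases past the stop codon, were listed at 16.5 to 24.9 FPKM in all untreated and 50 µg tumors and in 100 µg replicates 1 and 2, where they made up 67.6 to 83.3% of the FPKM that reached the stop codon. None was listed in 100 µg replicate 3 or the 200 µg libraries. There, the transcripts that held the stop codon ran 4870 bases or more past it. Short ends were also listed in 0 of 3 brains, where replicate 3 again listed no transcript with the stop codon. Transcripts without the stop codon are not counted here. In 200 µg replicate 2, spliced transcripts that began within 200 bases of the RefSeq start held 26.7 FPKM, and 4.79 FPKM reached the stop codon. In FPKM weighted by coding length, Sod2 averaged 28.1 ± 0.909 in tumors without antibody, 27.8 ± 6.21 at 50 µg, 17.3 ± 7.69 at 100 µg and 15.2 ± 8.42 at 200 µg (SD, n = 3 each). The trend on that scale was -0.54 per 100 µg (SE 0.19, adjusted p = 0.106), and that on the exonic scale 0.08 (SE 0.09). The libraries without a listed short end are the 4 with few genes in pieces, so dose and assembly cannot be told apart here either. On the coding scale 200 µg replicate 2 did not follow this split. It was at 24.8 FPKM, against 8.60, 9.42 and 11.2 FPKM in the other libraries of the split. Untreated tumors were at 27.4 to 29.1 FPKM.

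**Figure D4:**
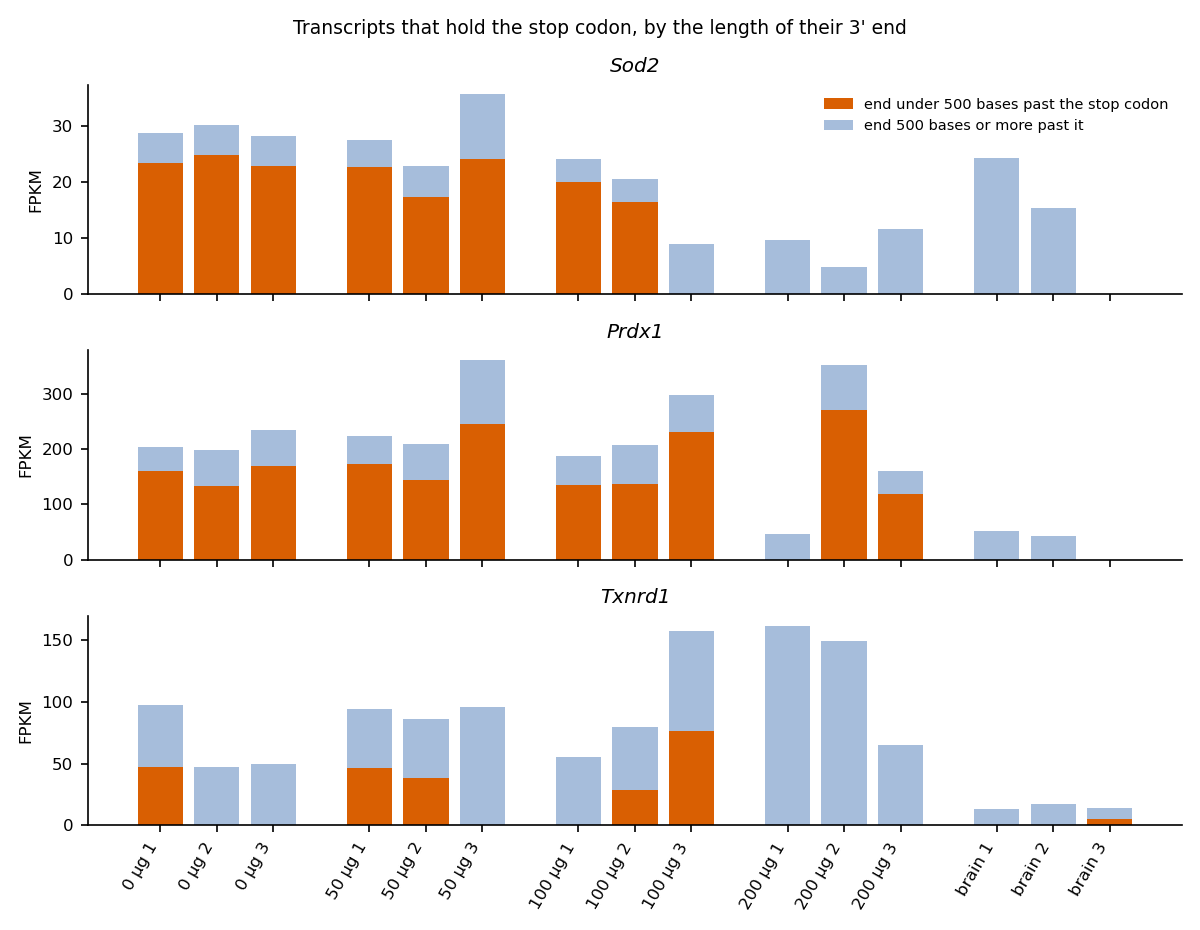
Bars give, for each library, the FPKM of transcripts that hold the stop codon of Sod2, Prdx1 and Txnrd1, split into ends under 500 bases past it (orange) and longer ends (blue); a missing bar means that no listed transcript held the stop codon. The orange part of Sod2 is present in 8 tumor libraries and absent from 100 µg replicate 3, the 200 µg group and brain. Transcripts without the stop codon are not drawn. In 200 µg replicate 2 the Sod2 bar shows 4.79 FPKM, where spliced transcripts held 26.7 FPKM.

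The remaining members are placed on mm10 as follows. Keap1 lies on chromosome 9 (21229730 to 21239361, minus strand), Nqo1 on chromosome 8 (107388225 to 107403206, minus strand) and Srxn1 on chromosome 2 (152105516 to 152111376, plus strand). Gsr lies on chromosome 8 (33652523 to 33698163, plus strand), G6pdx on chromosome X (74409483 to 74429194, minus strand) and Cat on chromosome 2 (103453849 to 103485160, minus strand). Their values cover all exons, and the coding share of exonic length ran from 6.7% in Sod2 to 60.5% in Cat.

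Other genes of the pathway, 72 in all on 6 lists with Me1 on 2 of them, moved unevenly between tumor and brain. Their counts are read beside the 61.1% of all genes that passed there, 32.8% higher and 28.4% lower. Of 12 partners and regulators of NRF2, 5 were higher and 1 lower in tumor (median log2 fold change 0.14), and none passed with dose. Bach1, a repressor that competes with NRF2 for the same element, had 5.95, 6.53 and 7.10 FPKM in untreated tumors, against 1.65, 2.05 and 2.09 FPKM in brains (log2 fold change 1.36, SE 0.15, adjusted p = 0.000348).

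Of 20 tested other NRF2 targets, 8 were higher and 5 lower in tumor, with a median of -0.16 beside 0.12 over all genes. The 13 called are near the share over all genes. Hmox1, heme oxygenase, had 29.1, 29.9 and 58.3 FPKM in untreated tumors, against 2.22, 1.99 and 2.53 FPKM in brains (log2 fold change 3.56, SE 0.29, adjusted p = 0.000108). Ptgr1, prostaglandin reductase, had 5.66, 6.98 and 8.71 FPKM in untreated tumors, against 0.918, 0 and 0.603 FPKM in brains (2.46, SE 0.29, adjusted p = 0.000481). The carbonyl reductases went the other way. Cbr1 had 1.40, 0.563 and 0.389 FPKM in untreated tumors, against 26.7, 22.4 and 17.9 FPKM in brains (-3.73, SE 0.26, adjusted p = 6.06e-05). Cbr3 had 1.48, 0 and 0.937 FPKM in untreated tumors, against 10.4, 16.8 and 6.69 FPKM in brains (-2.78, SE 0.44, adjusted p = 0.00189).

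Of 10 genes that supply NADPH, 7 were higher and none lower in tumor, beside 32.8% of all genes higher and 28.4% lower. Their median was 1.09, beside 0.12 over all genes. In either direction 7 of 10 is near the 61.1% of all genes. Whether the list differs from all genes was not tested. Mthfd2, a mitochondrial enzyme of folate metabolism, averaged 24.6 ± 4.43 FPKM in untreated tumors and 2.28 ± 0.322 FPKM in brains (log2 fold change 2.95, adjusted p = 4.12e-05). Pgd, which follows G6pdx in the pentose phosphate pathway, averaged 13.5 ± 0.141 FPKM in untreated tumors and 4.20 ± 0.770 FPKM in brains (1.49, adjusted p = 0.000340, SD with n = 3 each).

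In the thioredoxin and peroxiredoxin list 6 of 11 were higher and 2 lower in tumor, with a median of 0.91. Prdx4, the peroxiredoxin of the endoplasmic reticulum, averaged 64.4 ± 8.46 FPKM in untreated tumors and 6.21 ± 1.17 FPKM in brains (log2 fold change 3.18, adjusted p = 3.21e-05). Sesn2, a stress-induced sestrin, averaged 23.0 ± 5.13 FPKM in untreated tumors and 4.52 ± 0.765 FPKM in brains (2.11, adjusted p = 0.000283). Prdx6 was lower, at 14.1 ± 2.44 FPKM in untreated tumors and 33.7 ± 1.32 FPKM in brains (-1.21, adjusted p = 0.000994), and so was the glutaredoxin Glrx (-0.94, adjusted p = 0.0130).

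Of 8 superoxide dismutases and glutathione peroxidases, Gpx7 (log2 fold change 3.16, adjusted p = 0.000256) and Gpx1 (1.68, adjusted p = 0.000205) were higher in tumor and Sod3, the extracellular dismutase, was lower (-1.18, adjusted p = 0.0213). The Sod3 call was lost in 2 of the 6 fits that left out a library, with adjusted p up to 0.0707. Of 6 tested genes of the phagocyte oxidase and other sources of reactive oxygen, the 2 that form its membrane core were higher. Cybb had 7.03, 3.16 and 7.73 FPKM in untreated tumors, and was listed at 0 in 2 brains and at 0.105 FPKM in the other. Cyba had 31.9, 13.8 and 41.8 FPKM in untreated tumors, against 4.01, 8.61 and 4.17 FPKM in brains (2.13, SE 0.46, adjusted p = 0.00737).

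Under the antibody the other NRF2 targets were the list with most calls. The lists were chosen with earlier results of these data known, so the shares below describe the list and are not independent support. At 200 µg 5 of 19 passed, all higher, beside 2.13% of all genes higher, with a median of 0.61 beside 0.03 over all genes. In the trend 7 of 19 passed, all higher, beside 5.28% of all genes higher, with a median of 0.38 per 100 µg beside 0.03. At 50 and 100 µg none of 19 passed, with medians of -0.12 and 0.28. Mgst1, a membrane-bound glutathione transferase, had 2.59 to 3.504 FPKM in tumors without antibody, 1.95, 3.33 and 5.46 FPKM at 50 µg, 11.2, 10.9 and 10.5 FPKM at 100 µg, and 19.9, 14.8 and 7.83 FPKM at 200 µg. Its log2 fold change at 200 µg was 1.84 (SE 0.33, adjusted p = 0.0233), and it did not pass with the term for libraries with few genes in pieces. Abcc4, an efflux pump, had 3.73 to 4.28 FPKM in tumors without antibody, 3.57 to 3.70 FPKM at 50 µg, 5.13 to 6.06 FPKM at 100 µg, and 8.67, 7.04 and 5.79 FPKM at 200 µg (log2 fold change 0.69, SE 0.16, adjusted p = 0.0451).

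The other 3 called targets are uncertain, being joined to a neighbor, overlapped by another gene or nearly copied elsewhere, and were named after their values were seen. Slc7a11, the cystine carrier that feeds glutathione synthesis, had 7.77, 4.21 and 4.53 FPKM at 200 µg, against 0.838, 1.12 and 1.15 FPKM in untreated tumors (log2 fold change 1.64, adjusted p = 0.0253). Me1, malic enzyme and a source of NADPH, had 33.6, 28.3 and 20.5 FPKM at 200 µg, against 12.05, 10.7 and 8.65 FPKM in untreated tumors (1.29, adjusted p = 0.0274). Gstm1, a glutathione transferase, had 17.9, 12.7 and 10.03 FPKM at 200 µg, against 4.96, 4.46 and 3.31 FPKM in untreated tumors (1.45, adjusted p = 0.0395). For all 3 the lowest 200 µg library lay above the highest untreated one, as for 21.9% of all genes. The 3 were named because they were called on these libraries, so this separation is no added support. These calls changed with the processing: with the term for libraries with few genes in pieces, with groups by agent tag or with a plain FPKM sum, 0 of 19 passed at 200 µg, and leaving out single libraries gave 0 to 6 calls, with 0 without any 1 of the untreated libraries, 200 µg replicate 1 or 200 µg replicate 2. Under the replicate block, 2 passed at 200 µg. In the trend 0 passed with the term or by agent tag, 1 with the plain sum, 1 without 200 µg replicate 1 and 2 without 200 µg replicate 2. The marker sums of microglia, astrocytes, oligodendrocytes, neurons and choroid plexus given above differ between the same libraries, and their part in these calls was not tested.

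In the dismutase and thioredoxin lists 1 enzyme each was lower at 200 µg, of 8 and 11 tested, beside 0.866% of all genes lower. Both enzymes are uncertain in the same sense and were named after their values were seen. Sod1, the cytosolic superoxide dismutase, had 4.01, 7.71 and 14.4 FPKM at 200 µg, against 30.1, 36.3 and 24.0 FPKM in untreated tumors (log2 fold change -1.81, adjusted p = 0.0329). Txnrd2, the mitochondrial thioredoxin reductase, had 0.752, 0.983 and 0.438 FPKM at 200 µg, against 2.44, 3.66 and 1.84 FPKM in untreated tumors (-1.06, adjusted p = 0.0395). It was thus under 1 FPKM in every 200 µg library. All 200 µg libraries lie in the split of few genes in pieces, which cannot be told apart from dose here either. Over all list genes named at 200 µg, 88 alternative fits kept the call and 73 lost it. In the NADPH list Me1 was the only call at 200 µg, and no gene of the oxidase list passed.

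**Figure D5:**
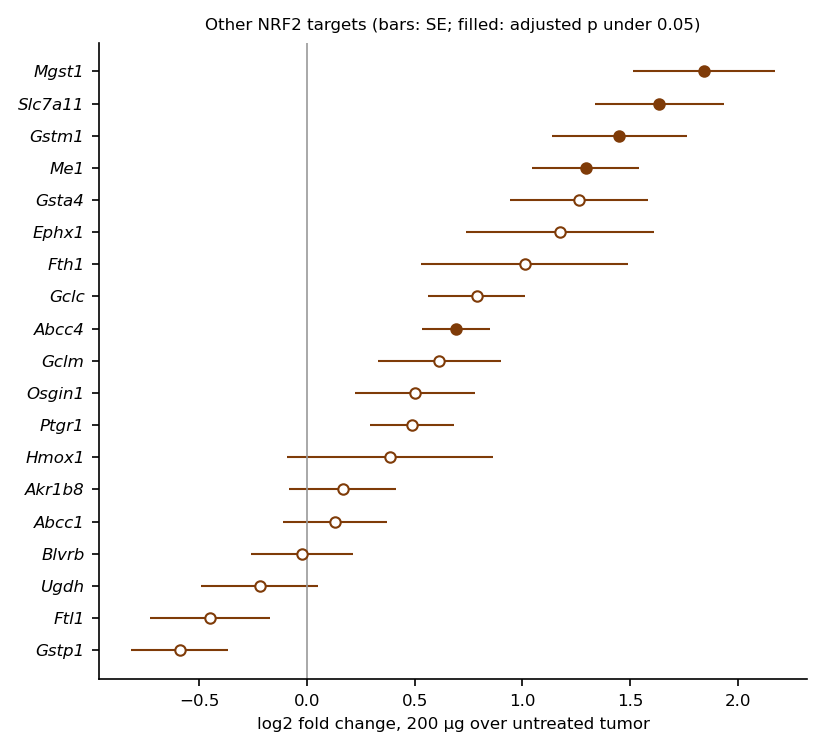
The log2 fold change of 200 µg over untreated tumor (horizontal axis, SE as bars) is drawn for the 19 tested other NRF2 targets, filled where adjusted p is under 0.05. The list runs from Mgst1 at 1.84 to Gstp1 at -0.59, and 15 of the 19 lie to the right of 0.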

How the data were processed

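The authors deposited 1 transcript list per library with FPKM values; STAR, Cufflinks and mm10 are named per the submitters' processing notes, with versions not given in the sources used here. Genes were listed on both strands, and strand was ignored. Here, single-exon transcripts under 200 bases were set aside, and FPKM was summed per GENCODE M21 gene, weighted by the exonic share covered (Python 3.11.15, pandas 2.3.3, bedtools 2.31.1). Copies were found with BLAST 2.17.0. Differences were tested with limma 3.58.1 (R 4.3.3) on log2(FPKM + 1) of the deposited values, for genes with a mean of at least 1 FPKM, with Benjamini-Hochberg adjustment over all genes and a call at an adjusted p under 0.05. Untreated tumor and brain were fitted on 6 libraries, and doses and the trend on 12 tumors. The code was tested on simulated data. Depth was estimated from transcript coverage; read counts were not used here.

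The members and lists were chosen with earlier results of these data known. All 10 members are named, and from each list up to 2 called genes per direction with the largest change that are not uncertain; exceptions are marked. Alternatives were a plain FPKM sum, a pseudocount of 0.1, no filter, median-of-ratios scaling, a replicate block, groups from the agent tag, omission of the 4 libraries whose tag disagreed, a term for libraries with few genes in pieces, 1 fit of all 15 libraries, and leaving out each library. The coding-length share and the omission of the 50 µg library with most genes in pieces were added after seeing the data.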

Additional observations from a re-analysis of the deposited data

How the results depend on the processing

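At 200 µg no member passed, but 1 did with no filter on low values, 1 with median-of-ratios scaling, 1 without the 50 µg library with most genes in pieces and 2 without the 4 libraries of disagreeing tag; leaving out single libraries gave 0 to 3. Of the 3 trend calls, 0 were left with the plain FPKM sum, the agent tag, the term for few genes in pieces or the coding length, and 1 without the 4 libraries of disagreeing tag; leaving out single libraries gave 0 to 4. Replicate numbers did not pair the samples (correlations of -0.0192 to 0.0112 in 3 pairs and -0.0794 to 0.0995 in 18 pairs). With the replicate block 7 members passed between tumor and brain, 0 at each dose and 2 in the trend, where Txnrd1 missed (adjusted p = 0.0568), and 245 genes passed at 200 µg, 0 at 100 µg and 919 in the trend.

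These values changed sign. Between tumor and brain, the plain sum gave Sod2 0.66 and Cat -0.31, median-of-ratios scaling Keap1 -0.015, Srxn1 -0.012 and Cat -0.17, the coding length Sod2 0.82, and leaving out libraries Cat -0.049 to 0.19. At 50 µg the plain sum gave Txnrd1 -0.040 and Sod2 -0.037. The agent tag gave Nfe2l2 -0.30, Keap1 0.12, Txnrd1 -0.15, Srxn1 0.029, Gsr -0.36, Sod2 -0.23 and Cat -0.26 there. Without the 4 libraries of disagreeing tag Nfe2l2 was -0.24, Txnrd1 -0.014, Gsr -0.39, Sod2 -0.14 and Cat -0.040. The coding length gave Gsr -0.012 and Sod2 -0.037. Without the 50 µg library with most genes in pieces Nfe2l2 was -0.15, Txnrd1 -0.024, Gsr -0.20 and Sod2 -0.14. Leaving out single libraries gave Nfe2l2 -0.15 to 0.30, Txnrd1 -0.024 to 0.22, Gsr -0.20 to 0.29 and Sod2 -0.14 to 0.14.

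At 100 µg Cat was -0.14 by the agent tag and -0.029 without the 4 libraries. At 200 µg Sod2 was -0.92 with the plain sum, -0.071 by tag, -0.075 with the term for few genes in pieces and -0.97 by coding length, G6pdx was 0.23 by tag and Prdx1 -0.0073 with the term. In the trend Sod2 was -0.51 with the plain sum, -0.0060 by tag, -0.065 with the term and -0.54 by coding length, and G6pdx was 0.15 by tag, 0.040 without the 4 libraries and -0.33 to 0.027 without single libraries. The causes were not tested. Over all genes, calls ranged from 6050 to 10825 between tumor and brain, 0 to 8 at 50 µg, 0 to 45 at 100 µg, 10 to 1223 at 200 µg and 0 to 2039 in the trend. With 3 libraries a group and assembled transcripts in place of counts, low genes such as Nqo1 are the least certain.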
